A study of Mus musculus with 6 samples.

Results

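Transcripts of 10 hypoxia response genes were compared between early glycogen-rich liver lesions and the normal liver beside them. The genes are Hif1a, Epas1, Egln1, Egln3, Vegfa, Ldha, Bnip3, Ndrg1, P4ha1 and P4ha2. They were taken by symbol from a table of 25230 genes, and all 10 were present and passed the filter on low counts, out of 12506 genes tested. The 3 lesion regions, labelled as small tumours with stacked glycogen, and the 3 normal adjacent regions came from livers of male C57BL/6 mice that carry an age label of 7 months. All the mice, those of the normal regions included, were injected with diethylnitrosamine (DEN), a carcinogen that acts in liver, at 14 days of age and 25 mg/kg, so the normal regions are carcinogen-exposed liver too. Regions were dissected from formalin-fixed, paraffin-embedded sections. The question asked of the genes was whether the lesions carry a hypoxic transcript pattern.

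Cells sense oxygen through the hypoxia-inducible factors (HIF). An alpha subunit, encoded by Hif1a or Epas1, pairs with a constant partner, Arnt, and switches on target genes. In oxygen, prolyl hydroxylases of the Egln family mark the alpha subunit for destruction by the Vhl ligase, so HIF activity is set mainly on the protein and is read in tissue through its targets. Among the targets are Vegfa, Ldha, Bnip3, Ndrg1, P4ha1, P4ha2 and the hydroxylase genes Egln1 and Egln3 themselves. In liver, blood loses oxygen on its way from the portal tract to the central vein, and Epas1 is known for roles in both hepatocytes and endothelial cells.

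The libraries held 7294716 to 7412833 counts in the lesions and 6352898 to 6542997 in the normal regions. Lesions 1 and 2 were close to each other, with a chi-square per degree of freedom of 1.57 between their counts, where 1 is sampling noise, and lesion 3 stood apart from both (11.2 and 11.2). Normal regions 2 and 3 were also close (1.37), against 3.15 and 3.38 for normal region 1. Which mouse each region came from is not labelled. The p-values therefore measure only the spread between these samples, and would be too small for regions of the same group taken from the same animal. A lesion and a normal region of the same animal would form a pair, which the test does not use. The liver markers Alb, Ttr, Apoa1, Serpina1c, Fga, Hnf4a and Tat were detected in all 6 libraries. They went both ways: by the edgeR test given below, 2 were higher in lesions, 3 lower and 2 did not pass. Their log2 fold changes ran from -1.39 to 1.53. Albumin mRNA took 7.25% to 8.84% of lesion counts and 3.37% to 3.72% of normal counts, so levels here are CPM, a count relative to the library total after that total was scaled by the TMM method, which compares libraries on the bulk of their genes.

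The 10 genes did not move one way. By edgeR's quasi-likelihood test, with Benjamini-Hochberg adjustment over all 12506 tested genes and a threshold of 0.05, Epas1 and Vegfa rose, Egln3, Ndrg1 and P4ha2 fell, and Hif1a, Egln1, P4ha1, Ldha and Bnip3 did not pass. That is 2 higher and 3 lower of 10, where 37.1% of all tested genes passed in either direction, 18.7% higher and 18.4% lower. The lesion libraries lay all above or all below the normal libraries for 5 of the 10, where 48.2% of all tested genes did so. Both shares are near the background. The median log2 fold change of the 10 genes was -0.04, against 0.00 for all tested genes. Of the 5 calls, only that of Epas1 held in all 24 alternative fits. With DESeq2 in place of edgeR, 2 of the 10 genes were higher and 1, Bnip3, was lower.

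**Figure D1:**
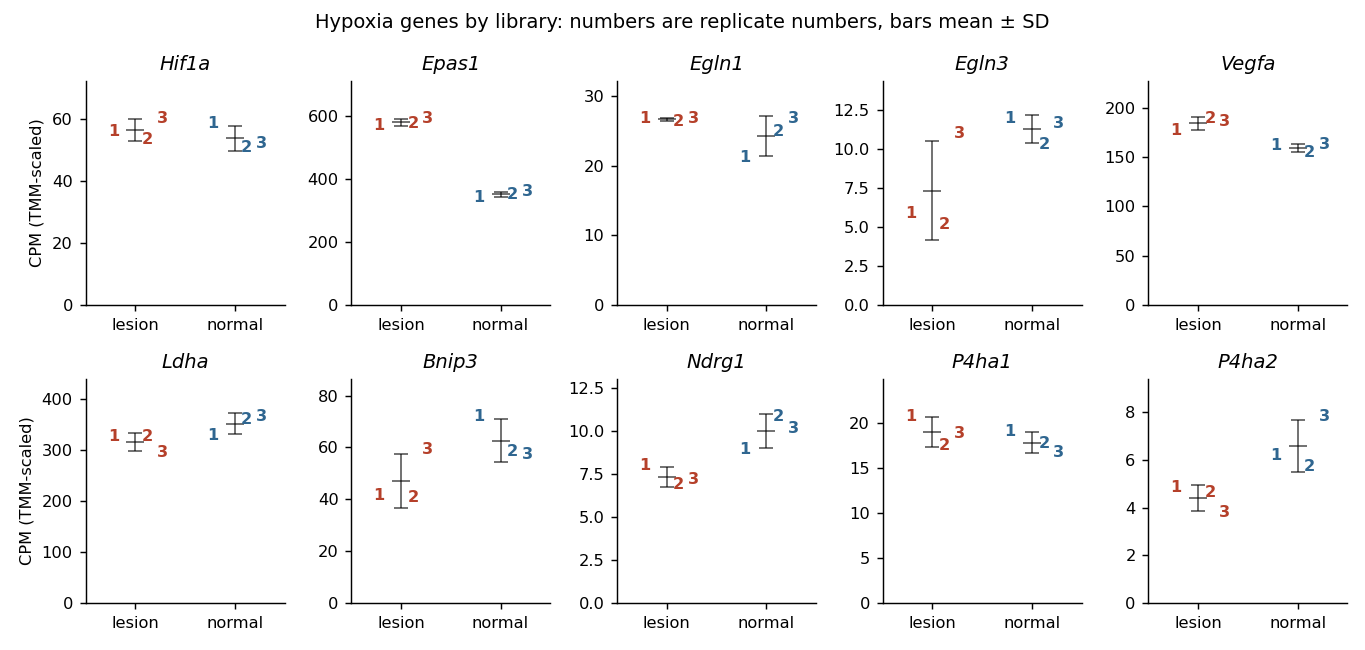
Level of each gene in each library, in CPM on TMM-scaled library sizes (y axis from 0), with the 3 lesion regions left of the 3 normal regions. Digits are replicate numbers and bars are mean ± SD. Epas1 separates the groups (571 to 594 CPM in lesions, 343 to 360.5 CPM in normal regions), while Egln3 and Bnip3 are low in lesions 1 and 2 only.

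Of the HIF alpha subunit genes, Epas1 rose and Hif1a did not pass. Epas1, which encodes HIF-2 alpha (Entrez 13819, GRCm38 chromosome 17, 86753864 to 86833410), had 571, 579 and 594 CPM in lesions 1 to 3, against 343, 353 and 360.5 CPM in normal regions 1 to 3. The groups were far apart and each was tight. Epas1 averaged 581 ± 11.5 CPM in lesions and 352 ± 8.53 CPM in normal regions (SD, n = 3 each), a log2 fold change of 0.72 (SE 0.0546, edgeR adjusted p = 2.68e-09). Of all tested genes, 14% had a larger change in absolute terms. The call held in all 24 alternative fits, with log2 fold changes from 0.58 to 0.74.

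Hif1a, which encodes HIF-1 alpha (Entrez 15251, chromosome 12, 73901324 to 73947554), had 56.0, 53.3 and 60.3 CPM in lesions and 58.5, 51.0 and 52.3 CPM in normal regions. The groups overlapped, and the log2 fold change was 0.07 with a 95% interval from -0.11 to 0.24 (edgeR adjusted p = 0.554). Per length, in the deposited FPKM values, Epas1 was above Hif1a in every library. The ratio of Epas1 to Hif1a FPKM was 9.46, 10.1 and 9.13 in lesions, against 5.44, 6.42 and 6.39 in normal regions, and does not depend on library scaling. With an exact two-sided permutation test over the 6 libraries this gave p = 0.1, the smallest a design of 3 against 3 allows (adjusted p = 0.1 over 3 pairs of related genes).

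Epas1 is abundant in endothelial cells, so endothelial markers are given beside it. Their summed level was 393 to 408 CPM in lesions and 393 to 404 CPM in normal regions. Of the 7 markers Lyve1 and Emcn rose, by 0.96 and 1.25 on the log2 scale, and Pecam1, Cdh5, Tek, Stab2 and Clec4g did not pass (log2 fold changes from -0.35 to 0.11). The Emcn values overlapped, with lesion 3 inside the normal range. Of the 7 markers, 1 was above every normal region in all 3 lesions and 1 was below. The ratio of Epas1 to Pecam1 FPKM was 9.49 ± 0.650 in lesions and 6.22 ± 0.246 in normal regions. Macrophage markers were lower, with all 7 past the threshold and a sum of 399 to 405 CPM in lesions against 651 to 686 CPM in normal regions. Cholangiocyte markers summed to 129 to 169 CPM in lesions and 27.9 to 28.9 CPM in normal regions, and both tested ones, Sox9 and Spp1, rose. Erythroid markers summed to 50.4 to 60.2 CPM in lesions and 106.8 to 117.4 CPM in normal regions, and the 1 tested, Alas2, fell. Lymphocyte markers summed to 32.5 to 35.1 CPM in lesions and 42.8 to 44.6 CPM in normal regions. Of the 2 tested, 1 fell (log2 -0.46) and 1 did not pass (log2 0.24). The part of all these markers in the Epas1 result was not tested. In bulk tissue, fewer cells of a type and less RNA per cell cannot be told apart.

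**Figure D2:**
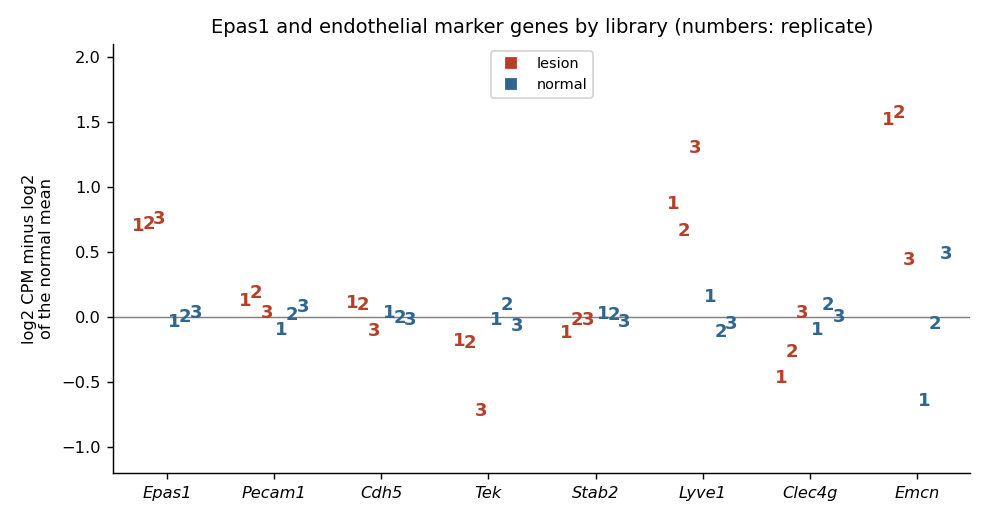
Epas1 and the 7 endothelial marker genes in each library, as the log2 CPM minus the log2 of the normal mean (y axis), lesions left of normal regions for each gene and digits giving the replicate. Epas1 lies at 0.70 to 0.75 in all 3 lesions, while Pecam1, Cdh5 and Stab2 stay near 0, Lyve1 is higher in all 3 lesions, and Emcn is higher in lesions 1 and 2 but within the normal range in lesion 3. Of the 7 markers, 1 lies below every normal region in all 3 lesions.

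Of the oxygen-sensing hydroxylase genes, Egln3 passed as lower, with overlapping groups, and Egln1 did not pass. Egln1, the main HIF prolyl hydroxylase (Entrez 112405, chromosome 8, 124908587 to 124949254), had 26.8, 26.3 and 26.8 CPM in lesions and 21.2, 25.0 and 26.7 CPM in normal regions. Lesions 1 and 3 lay just above the normal range and lesion 2 within it, and the gene did not pass (log2 0.13, 95% interval -0.10 to 0.36, edgeR adjusted p = 0.372).

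Egln3, a hydroxylase gene that is itself strongly induced by HIF (Entrez 112407, chromosome 12, 54178981 to 54203874), had 5.84, 5.18 and 11.0 CPM in lesions, against 11.9, 10.3 and 11.6 CPM in normal regions. Lesions 1 and 2 were low and lesion 3 was inside the normal range. These levels rest on 41, 37 and 75 counts in lesions and 79, 70 and 80 in normal regions. The fall was -0.63 in log2 units with an SE of 0.232 (edgeR adjusted p = 0.0468). Without lesion 3 it was -1.03 (edgeR adjusted p = 1.58e-05), and without any 1 of the other 5 libraries the call was lost (edgeR adjusted p from 0.0906 to 0.178). The ratio of Egln3 to Egln1 FPKM was 0.287, 0.259 and 0.540 in lesions and 0.743, 0.542 and 0.573 in normal regions (exact permutation p = 0.1, adjusted p = 0.1).

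Around these genes, a list of 16 further HIF subunits, partners and sensors had 14 tested genes, of which 2 rose, 3 fell and 9 did not pass, with a median log2 fold change of -0.08. That is 35.7% called, against 37.1% of all tested genes, the share each list below is to be read against. The coactivator gene Crebbp rose by 0.30 and Siah2, a ligase that removes Egln proteins, by 0.44. Cited2, a HIF-induced inhibitor that competes for the same coactivators, fell to 12.2 ± 1.49 CPM in lesions, against 20.6 ± 3.02 CPM in normal regions (log2 -0.76, edgeR adjusted p = 0.000312). The Siah2 call was lost without normal region 3 (edgeR adjusted p = 0.0753). It was also lost with DESeq2 (adjusted p = 0.0637) and with library size alone as the scale (edgeR adjusted p = 0.0775). Without replicate 2 or replicate 3 of both groups it was lost too (edgeR adjusted p = 0.0593 and 0.120). The constant partner Arnt was at 75.1 ± 2.23 CPM in lesions and 70.6 ± 6.09 CPM in normal regions (edgeR adjusted p = 0.389). Egln2 was at 49.1 ± 2.42 CPM in lesions and 50.04 ± 3.32 CPM in normal regions (edgeR adjusted p = 0.815).

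**Figure D3:**
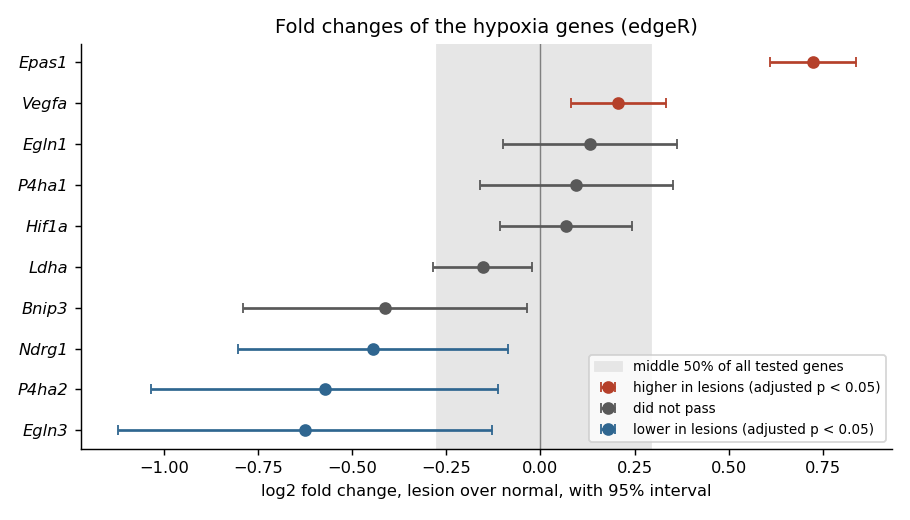
Log2 fold change of each gene, lesion over normal (x axis), with its 95% interval from edgeR, ordered by size. The band marks the middle 50% of all tested genes; Epas1 (0.72) lies outside it with its whole interval, and Vegfa (0.21) inside it.

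Among secreted targets, Vegfa changed a little. Vegfa, the angiogenic growth factor gene (Entrez 22339, chromosome 17, 46016993 to 46032377), had 177, 189 and 186 CPM in lesions, against 162, 155 and 162 CPM in normal regions. All lesions were above all normal regions by a small margin. Vegfa averaged 184 ± 6.50 CPM in lesions and 159.6 ± 4.06 CPM in normal regions, a 1.15-fold difference (log2 0.21, SE 0.0604, edgeR adjusted p = 0.0111). The call held in 20 of 24 alternative fits and was lost without normal region 2 (edgeR adjusted p = 0.078). It was also lost with library size alone as the scale, where the change was 0.07 (edgeR adjusted p = 0.407) and the median of all genes shifted by -0.14.

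Of 9 other VEGF ligand and receptor genes, 8 were tested. The receptor genes Flt1 and Flt4 rose by 0.37 and 0.27 on the log2 scale, 0 fell and 6 did not pass, with a median of 0.26 and 25% called. The count of lower genes was also 0 by edgeR at an unadjusted p under 0.05, by DESeq2 and by limma-voom. It was 1 by edgeR without replicate 3 of both groups, and 1 at an unadjusted p under 0.05 without lesion 3 or without normal region 3. The main endothelial receptor gene Kdr was at 108 ± 4.55 CPM in lesions and 115 ± 3.05 CPM in normal regions (edgeR adjusted p = 0.268). The Flt1 call was lost without normal region 2 (edgeR adjusted p = 0.0666) and with library size alone as the scale (edgeR adjusted p = 0.0822). It was also lost in limma fits of log2 FPKM (adjusted p from 0.0767 to 0.102). Of 13 further secreted targets 8 were tested, of which 3 rose, 4 fell and 1 did not pass, at a median of -0.00 and with 87.5% called. Igfbp1, a liver-secreted binder of insulin-like growth factors, rose to 71.8 ± 16.1 CPM in lesions, against 27.5 ± 3.07 CPM in normal regions (log2 1.39, SE 0.186, edgeR adjusted p = 0.00105). The cytokine gene Mif rose by 0.39. Angptl4, an inhibitor of lipoprotein lipase, fell by 0.48 on the log2 scale (edgeR adjusted p = 0.00687). Ang, which encodes angiogenin, fell by 1.39 on the log2 scale. Its locus overlaps that of Rnase4, so reads of the pair can be mixed.

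Ldha and Bnip3 are textbook HIF targets, and neither rose. Ldha, the lactate dehydrogenase subunit that turns pyruvate into lactate (Entrez 16828, chromosome 7, 46842274 to 46855627), had 327.1, 325 and 295 CPM in lesions, against 327.4, 359 and 366 CPM in normal regions. All lesions were below all normal regions, lesion 1 only just below normal region 1. The log2 fold change was -0.15 with a 95% interval from -0.28 to -0.02 (edgeR adjusted p = 0.0635), an interval that lies below 0. It passed as lower in 4 of 24 alternative fits, among them the one without normal region 1 (log2 -0.20, edgeR adjusted p = 0.0351). Ldha has 3 annotated pseudogene copies, which can share reads with it. Of its relatives, Ldhd, a mitochondrial enzyme for D-lactate whose locus overlaps Znrf1, fell by 0.68 on the log2 scale, Uevld did not pass, and Ldhb, Ldhc and Ldhal6b had too few counts to be tested.

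Bnip3, a mitochondrial receptor for mitophagy (Entrez 12176, chromosome 7, 138890836 to 138909506), had 41.5, 40.6 and 59.1 CPM in lesions, against 72.1, 58.6 and 57.1 CPM in normal regions. As with Egln3, lesions 1 and 2 were below every normal region and lesion 3 was within their range. The difference was -0.41 in log2 units with an SE of 0.162 (edgeR adjusted p = 0.0845). Without lesion 3 the fall passed, at -0.61 (edgeR adjusted p = 3.38e-08). DESeq2, which also passed it, gave -0.41 (adjusted p = 0.0234). Its relative Bnip3l fell in all 3 lesions, to 36.2 ± 1.09 CPM, against 49.7 ± 1.0 CPM in normal regions (log2 -0.46, SE 0.0832, edgeR adjusted p = 0.000226).

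**Figure D4:**
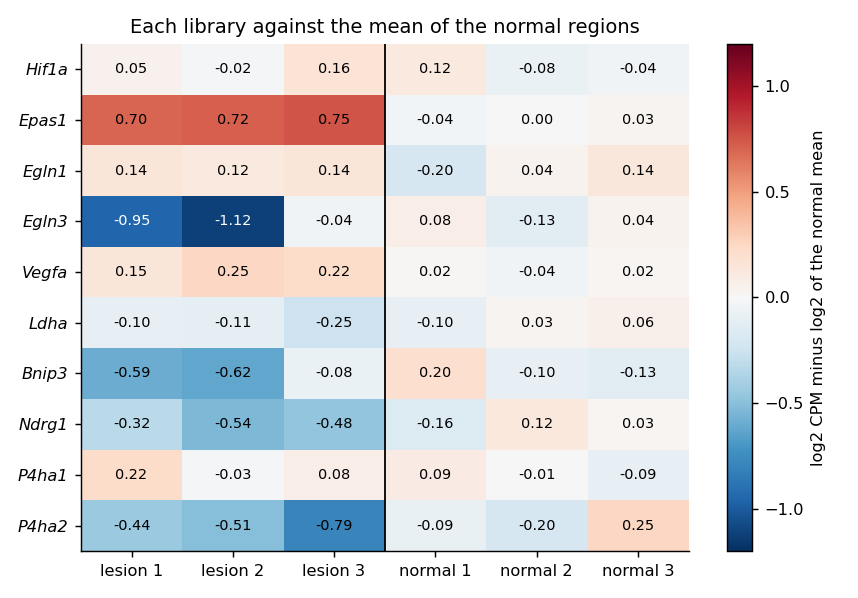
Each gene (rows) in each library (columns, lesions left of normal regions) as the log2 CPM minus the log2 of the normal mean, printed in the cell and shown by colour. Egln3 and Bnip3 are at -0.95 to -1.12 and -0.59 to -0.62 in lesions 1 and 2 but at -0.04 and -0.08 in lesion 3, while Epas1 is alike in all 3 lesions.

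The sequences before the start sites of Ldha and Bnip3 are shown because, among the genes, they hold the most copies of the core to which HIF binds, ACGTG or GCGTG on either strand. They are the 250 bases before an annotated start, RefSeq on GRCm38.p6, given 5′ to 3′ on the gene's strand with the cores in capitals. Where CACGTG is read, the core stands on both strands and counts on each. The Ldha window lies inside the annotated gene, before a later start, and a second Ldha window, not printed, holds 1 core. Bases just after the start of the printed Ldha window were found in no Ldha transcript searched. Those after the start of the second Ldha window were found.

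Ldha (chr7:46845554-46845803, plus strand): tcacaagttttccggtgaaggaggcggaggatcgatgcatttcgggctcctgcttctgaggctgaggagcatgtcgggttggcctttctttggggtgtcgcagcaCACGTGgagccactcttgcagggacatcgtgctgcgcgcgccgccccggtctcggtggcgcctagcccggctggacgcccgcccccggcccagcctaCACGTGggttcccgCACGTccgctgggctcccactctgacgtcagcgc

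Bnip3 (chr7:138909507-138909756, minus strand): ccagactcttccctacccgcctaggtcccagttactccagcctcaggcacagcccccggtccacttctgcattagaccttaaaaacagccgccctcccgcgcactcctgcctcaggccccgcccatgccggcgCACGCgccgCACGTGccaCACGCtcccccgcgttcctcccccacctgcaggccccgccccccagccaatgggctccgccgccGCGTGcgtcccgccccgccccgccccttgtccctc

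Both windows hold 5 cores. Of the tested genes' windows, 4.6% hold at least 4. The Ldha and Bnip3 windows were picked for their count, so that share does not measure how unusual they are. Windows were found for 8 of the 10 genes, all but Epas1 and Ndrg1. There were 10 windows in all, and 9 of these hold at least 1 core. The window before the first Vegfa start holds 0 and that before a later Vegfa start 2. The windows of Hif1a, Egln1 and Egln3 hold 3, 2 and 1. As for the printed Ldha window, bases after the start of the Hif1a and later Vegfa windows were not found in a transcript of the gene. A core stood in 38.6% of all 32851 windows and in 54% of those of tested genes. The share was 56.1% for genes that rose and 51% for genes that fell. A match is a description of letters, not a site of binding.

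The glycolytic targets beside Ldha went both ways. Of 20 further genes of glucose uptake, glycolysis and lactate transport, 19 were tested, of which 5 rose, 2 fell and 12 did not pass, with a median log2 fold change of 0.11 and 36.8% called. Gpi1, the glucose-6-phosphate isomerase gene, rose to 371 ± 56.0 CPM in lesions, against 162 ± 13.1 CPM in normal regions (edgeR adjusted p = 5.78e-05). The lactate transporter gene Slc16a1 rose by 0.84 and the aldolase gene Aldoa by 0.52 on the log2 scale, while Pgk1, a glycolytic enzyme and classical HIF target, fell by 0.29. The HIF-induced glucose transporter gene Slc2a1 was at 7.17 ± 2.62 CPM in lesions and 7.89 ± 1.05 CPM in normal regions (edgeR adjusted p = 0.673). Pdk1, a kinase that closes pyruvate dehydrogenase, was at 62.8 ± 7.39 CPM in lesions and 72.0 ± 1.13 CPM in normal regions (edgeR adjusted p = 0.0755).

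HIF also acts on glycogen genes, and 6 of these were listed. Of the 6, 2 rose, 0 fell and 4 did not pass, with a median of 0.34. That is 33.3% called, near the 37.1% of all tested genes for a list this short. All 6 had a positive log2 fold change, as had 6298 of all 12506 tested genes. For 4 of the 6, every lesion lay above every normal region, where 24.2% of all tested genes did so. The count of lower genes was 0 too by edgeR at an unadjusted p under 0.05, by DESeq2 and by limma-voom. The branching enzyme gene Gbe1 rose by 0.95 and Ugp2, which makes UDP-glucose and overlaps Vps54, by 0.34 on the log2 scale. Gys1, the muscle-type glycogen synthase gene, was at 6.09 ± 0.368 CPM in lesions and 4.23 ± 0.410 CPM in normal regions (edgeR adjusted p = 0.0639).

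Of 10 mitochondrial targets other than Bnip3, 9 were tested, of which 1 rose, 2 fell and 6 did not pass, at a median of -0.19 and with 33.3% called. Besides Bnip3l, the respiratory supercomplex factor gene Higd1a fell by 0.51, and the adenylate kinase gene Ak4 rose by 0.23 on the log2 scale. The Ak4 call was lost without normal region 2 (edgeR adjusted p = 0.0585) and with library size alone as the scale (edgeR adjusted p = 0.289). It was also lost with the closest pair of libraries summed in each group (edgeR adjusted p = 0.0725).

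Ndrg1 fell, at a low level. Ndrg1, a stress-response gene induced by hypoxia in many cell types (Entrez 17988, chromosome 15, 66929318 to 66969641), had 7.98, 6.86 and 7.17 CPM in lesions, against 8.92, 10.9 and 10.2 CPM in normal regions. All lesions were below all normal regions. The fall was -0.44 in log2 units with an SE of 0.171 (edgeR adjusted p = 0.0475), and the call was lost without any 1 library except normal region 1 (edgeR adjusted p from 0.0622 to 0.162). The abundant liver member of the family, Ndrg2, fell to 437 ± 17.2 CPM in lesions, against 797 ± 17.4 CPM in normal regions (log2 -0.87, SE 0.0551, edgeR adjusted p = 2.11e-10). Ndrg3 had a log2 fold change of -0.28 and did not pass, and Ndrg4 had too few counts.

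Of 14 further targets in growth and chromatin, 11 were tested, of which 2 rose, 1 fell and 8 did not pass, at a median of 0.09 and with 27.3% called. The histone demethylase gene Kdm4b rose by 0.52 and the clock repressor gene Bhlhe40 by 0.30, and Zfp395 fell by 0.42 on the log2 scale. In iron handling and pH, 7 of 10 listed genes were tested, of which 2 rose, 2 fell and 3 did not pass, at a median of 0.19 and with 57.1% called. The ferroxidase gene Cp, which overlaps Hps3, rose by 0.79 and Trf, the transferrin gene, by 0.56. The haem oxygenase gene Hmox1 and the iron exporter gene Slc40a1, both abundant in macrophages, fell by 0.45 and 0.54 on the log2 scale. Macrophage markers fell with them (the sums above), and their part in these falls was not tested.

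Prolyl 4-hydroxylases need oxygen to stabilise collagen. Of their alpha subunit genes, P4ha2 passed as lower and P4ha1 did not pass. P4ha1 (Entrez 18451, chromosome 10, 59323197 to 59373304) had 20.8, 17.5 and 18.9 CPM in lesions and 19.0, 17.8 and 16.7 CPM in normal regions. The groups overlapped (log2 0.10, 95% interval -0.16 to 0.35, edgeR adjusted p = 0.573). P4ha2 (Entrez 18452, chromosome 11, 54100924 to 54131668) had 4.84, 4.62 and 3.80 CPM in lesions, against 6.20, 5.73 and 7.85 CPM in normal regions, from 34, 33 and 26 counts in lesions and 41, 39 and 54 in normal regions. All lesions were lower (log2 -0.57, SE 0.22, edgeR adjusted p = 0.0471), and the call was lost without any 1 of the 6 libraries (edgeR adjusted p from 0.0533 to 0.213). The ratio of P4ha2 to P4ha1 FPKM was 0.409, 0.463 and 0.354 in lesions, against 0.571, 0.566 and 0.824 in normal regions (exact permutation p = 0.1, adjusted p = 0.1). The windows before both starts are shown because P4ha2 passed and P4ha1 is its relative, and each holds 3 cores. The P4ha1 window runs past the first base of the annotated gene to a later start.

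P4ha2 (chr11:54100674-54100923, plus strand): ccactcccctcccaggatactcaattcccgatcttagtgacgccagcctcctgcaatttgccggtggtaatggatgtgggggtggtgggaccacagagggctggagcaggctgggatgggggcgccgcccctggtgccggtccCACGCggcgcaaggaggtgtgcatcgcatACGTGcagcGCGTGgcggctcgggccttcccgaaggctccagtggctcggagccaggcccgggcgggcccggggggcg

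P4ha1 (chr10:59323046-59323295, plus strand): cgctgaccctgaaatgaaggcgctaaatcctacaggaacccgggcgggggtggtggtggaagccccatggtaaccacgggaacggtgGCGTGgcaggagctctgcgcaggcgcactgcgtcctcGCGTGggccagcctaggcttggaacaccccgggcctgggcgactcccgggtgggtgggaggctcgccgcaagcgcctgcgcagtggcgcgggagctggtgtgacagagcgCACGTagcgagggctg

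Of 10 further genes of collagen hydroxylation, cross-linking and oxidative folding, 7 were tested, of which 2 rose, 2 fell and 3 did not pass, at a median of -0.14 and with 57.1% called. The collagen prolyl 3-hydroxylase gene P3h1 rose by 0.86 and the cross-linking enzyme gene Loxl2 by 0.80, while the lysyl hydroxylase gene Plod1 fell by 0.35. P4hb, the partner subunit of P4ha1 and P4ha2, fell by 0.15, a call lost without lesion 1 or 2 or normal region 2 or 3 (edgeR adjusted p from 0.0962 to 0.182). The P4hb call was also lost with DESeq2 (adjusted p = 0.109). Fibroblast markers stand beside these genes: Col1a1 and Col3a1 rose by 2.03 and 0.82, and Lrat fell by 1.11. The other 4, Dcn, Reln, Des and Pdgfrb, did not pass, and the median log2 fold change of the 7 was -0.03. The summed level of the 7 markers was 334 to 394 CPM in lesions and 318 to 324 CPM in normal regions. Their part in these results was not tested.

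Per length, the order of the 10 genes by mean FPKM was the same in lesions and in normal regions. Ldha was highest, at 162 ± 8.96 FPKM in lesions and 180.4 ± 10.8 FPKM in normal regions. Epas1 followed at 108 ± 2.38 FPKM in lesions and 65.3 ± 1.63 FPKM in normal regions. Vegfa, Bnip3, Hif1a, Egln1 and P4ha1 came next, from 43.7 down to 4.59 FPKM in lesions and from 37.9 down to 4.30 FPKM in normal regions. The lowest were Egln3, Ndrg1 and P4ha2, at 2.72, 2.52 and 1.87 FPKM in lesions and 4.18, 3.43 and 2.79 FPKM in normal regions. Between neighbours in this order, the libraries overlapped for Egln3 and Ndrg1 in lesions. In normal regions they overlapped for Vegfa and Bnip3, for P4ha1 and Egln3, and for Ndrg1 and P4ha2. Egln3 also overlapped P4ha2 in lesions.

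Some strongly oxygen-regulated genes were close to silent in both groups. In all, 22 list genes had too few counts to be tested, with at most 17 counts in any library. Genes were matched by symbol, and Plin2 is among the 22 through Entrez 101055843, with 12 counts in total. Its place there holds for that entry only. Car9, a carbonic anhydrase often used as a hypoxia marker, had 4, 3 and 1 counts in lesions and 0, 2 and 1 in normal regions. Adm, which encodes the vasodilator adrenomedullin, had 7, 5 and 8 counts in lesions and 8, 10 and 10 in normal regions. Epo had 0 counts in every library. By a floor of 3 counts per library this allows 0.420 to 0.439 CPM in lesions and 0.436 to 0.453 CPM in normal regions, for counting error only. None of the 22 was tested. In CPM, Adm was lower in all 3 lesions (0.997, 0.700 and 1.17) than in all 3 normal regions (1.21, 1.47 and 1.45). So was Edn1, which encodes a vasoconstrictor peptide, with 1, 2 and 3 counts in lesions and 5, 7 and 6 in normal regions. Adm and Edn1 were picked from the 22 after their values were seen. Of all tested genes, 24.0% had every lesion below every normal region. Over all 114 listed genes other than the 10, 92 were tested, of which 21 rose, 18 fell and 53 did not pass, at a median log2 fold change of 0.09. That is 42.4% called, beside 37.1% of all tested genes.

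**Figure D5:**
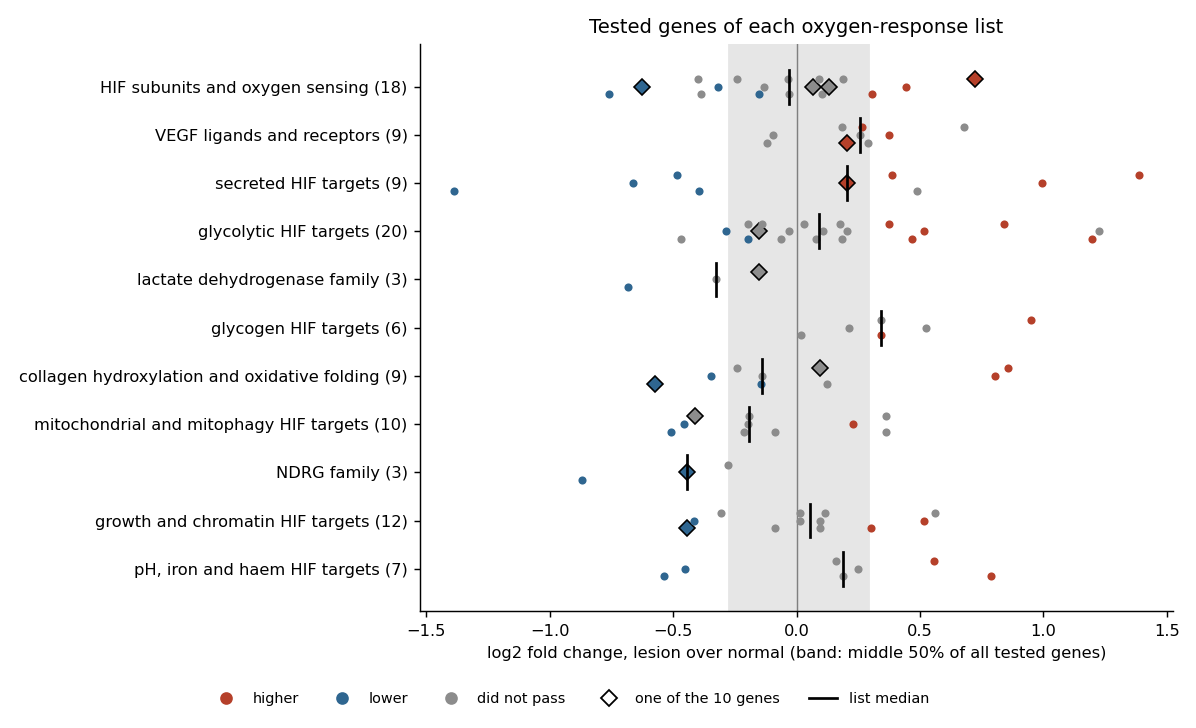
Log2 fold change, lesion over normal (x axis), of every tested gene in each oxygen-response list (rows, number tested in brackets), coloured by its edgeR call, with diamonds for the 10 genes, black ticks for list medians and a band for the middle 50% of all tested genes. Most lists hold both higher and lower genes, and list medians lie between -0.44 (NDRG family) and 0.34 (glycogen genes).

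In the authors' deposited table of lesion against adjacent tissue, 3 of the 10 genes passed an adjusted p of 0.05. Epas1 was higher at 0.72 and Vegfa at 0.20 (adjusted p = 0.0497), and Bnip3 was lower at -0.41 (adjusted p = 0.0274), all log2 fold changes in the authors' deposited table. Egln3, Ndrg1 and P4ha2 did not pass in the authors' deposited table (adjusted p = 0.0941, 0.209 and 0.194).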

How the data were processed

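Per the labels' protocols, total RNA from dissected FFPE sections was depleted of ribosomal RNA and amplified by PCR. CASAVA 1.8, DESeq2 1.24.0, STAR 2.5.2b and cutadapt 1.18 are named, without their roles, per the submitters' processing notes, and so is the build mm10. The counter, its annotation and its use of strand were not given in the sources used here. The deposited table holds raw counts for Entrez genes, FPKM values (a count per gene length and library size), and a comparison with log2 fold changes, a test score, p-values and a mean signal per gene, all deposited by the authors. Molecular identifiers are not named, so limits from counts cover counting error only.

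Counts were tested with edgeR 4.0.16 (R 4.3.3) as described beside the results, after edgeR's default expression filter, with robust dispersions and the group as the only term. Standard errors are the fold change over the square root of F, and intervals are 95%. DESeq2 1.42.0 and limma 3.58.1 were alternatives, and the procedure was tested on simulated data. FPKM served only to compare genes with each other and in alternative fits. The genes and lists were chosen with earlier results of these data known, so no p-value is adjusted over a list. The text names, from each list, up to 4 passing genes with the lowest p, or the 2 most abundant where none passed. Outside that rule, and chosen after their values were seen, are Arnt, Egln2, Kdr, Slc2a1, Pdk1, Gys1, Uevld, Ndrg3, Car9, Adm, Edn1 and Epo. Of windows the rule takes in (passing genes and their relatives), those of P4ha2 and P4ha1 are printed; Ldha and Bnip3 were added after their motif counts were seen, and the rest are given as counts. Coordinates and start sites are RefSeq on GRCm38.p6, the assembly behind mm10. Among the 10 genes, the loci of Hif1a, Egln1 and Ldha overlap long non-coding RNA genes and that of Bnip3 a pseudogene. None of these overlapping genes is in the deposited table.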

Additional observations from a re-analysis of the deposited data

How the results depend on the processing

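Epas1 passed as higher in all 24 alternative fits, and Hif1a, Egln1 and P4ha1 passed in 0 of them. With 2 genes of the 10 higher and 3 lower in the reported fit, the count of higher genes was 1 with library size alone, with the closest pair of libraries summed in each group (lesions 1 and 2, normal regions 2 and 3) and at a threshold of 0.01. The count of lower genes was 5 with library size alone and at a threshold of 0.1, 1 with upper-quartile scaling, DESeq2 or the replicate block, and 0 with limma on log2(FPKM + 1) unfiltered, with the closest pairs summed and at a threshold of 0.01. At an unadjusted p under 0.05 these last fits had 4, 2 and 5 lower genes. With libraries or replicate numbers left out, 1 to 2 of the genes were higher and 0 to 2 lower. Over all genes, 2340 were higher and 2296 lower. With library size alone these were 1474 and 3615, at a threshold of 0.01 1548 and 1570, and with libraries or replicate numbers left out they ran from 1349 to 2798 and from 1352 to 2796. With library size alone 29% of calls were higher, against 50.5% with TMM. Deviations of same-numbered libraries from their group means correlated at 0.01, -0.02 and -0.02. With 3 libraries a group, these values cannot tell whether same-numbered regions share a mouse. With the replicate block 2 genes were higher and 1 lower. The cause of these changes was not tested. P4ha2, Ndrg1 and Egln3 had 26 to 80 counts a library, and no alternative varied the depth.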
